A study of Mus musculus with 48 samples.

Results

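The endothelin system is described here by 6 of the 54532 genes measured: the ligand genes Edn1 and Edn3, the receptor genes Ednra and Ednrb, and the converting enzyme genes Ece1 and Ece2. The 6 were taken by gene symbol. Edn1 was chosen by its measured FPKM, which was higher with both drugs than with angiotensin II alone. The rule of choice names no region. Hemisphere comparisons of Edn1 that use those 2 treatments are therefore a description, with no test. Its hippocampal comparisons were tested, but those that use the 2 treatments are not independent of the choice if it also drew on hippocampal values. RNA sequencing was done on brains of male wild-type C57Bl6 mice, in 8 groups of 6 libraries, that is 4 treatments in the hippocampus and in the brain hemisphere. The treatments were angiotensin II with hydralazine, angiotensin II alone, vehicle with hydralazine, and vehicle. Angiotensin II, the pressor hormone of the renin-angiotensin system, was given at 0.7 mg per kg per day by osmotic minipump for 2 weeks, and vehicle mice were infused with saline. Hydralazine, a vasodilator that lowers blood pressure, was given in the drinking water at 50 mg per kg. The treatment comparisons share libraries with one another, so each is given with its own values.

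Endothelins are short peptides that act on blood vessels and other cells. Each is cut from a larger precursor, first by furin-like proteases and then by an endothelin-converting enzyme. In brain vessels endothelin-1 from the endothelium constricts through the A receptor on smooth muscle, while the B receptor, found on endothelium and on astrocytes, releases relaxing factors and clears the peptide. Endothelin-3 binds the B receptor more tightly than the A receptor.

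The stretches that encode the mature peptides of both ligands are shown because they show how alike the 2 ligands are. They were read from the GENCODE transcripts on GRCm38 and lie in exon 2 of each gene, at chr13:42303649-42303711 for Edn1 and chr2:174761749-174761811 for Edn3, both on the + strand. Capitals mark the 4 cysteine codons.
Edn1: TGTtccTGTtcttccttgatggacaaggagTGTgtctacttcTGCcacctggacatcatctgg
Edn3: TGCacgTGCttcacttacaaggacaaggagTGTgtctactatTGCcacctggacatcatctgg
Each stretch has 63 bases, of which 50 are identical between the 2 genes. Of the 21 codons, 15 encode the same residue.

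Hemisphere libraries held 15772111 to 23504274 reads in genes, and hippocampal libraries 1211505 to 21000874. In the hippocampus 18 libraries listed 18914 to 23044 genes above 0. The other 6 (AngII with hydralazine 5, AngII 3, hydralazine alone 3 and 4, and vehicle 3 and 4) listed 7805 to 15684, and up to 2 of 18 housekeeping genes were at 0 in them. A gene listed at 0 there is not shown to be absent, so hippocampal values are given with and without these 6 libraries. Markers of hippocampal neurons fitted the region labels: the 5 markers summed to 289 to 446 FPKM in hippocampal libraries and 63.4 to 80.3 FPKM in hemisphere libraries. Whether the libraries of a group came from separate mice is not stated in the labels. The p-values therefore rest on the spread among libraries, which may be technical.

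Edn1 was the most variable member over the 24 hemisphere libraries, a spread that includes the difference for which it was picked. In FPKM (fragments scaled to gene length and library size), the lowest, median and highest of 6 libraries were 1.45, 3.85 and 5.38 with both drugs, against 1.04, 1.41 and 1.51 with angiotensin II alone. They were 0.825, 3.48 and 4.73 with vehicle and hydralazine, against 0.887, 1.13 and 1.75 with vehicle. The widest gap in the 24 values lay between 1.75 and 3.43 FPKM. All 9 libraries above it came from mice that drank hydralazine, 5 with angiotensin II and 4 with vehicle. The 15 libraries below it were all 12 without hydralazine and 3 with it, namely replicate 4 of both drugs (1.45 FPKM) and replicates 3 and 4 of vehicle with hydralazine (0.825 and 1.51 FPKM). Between 36 and 247 reads stood behind each hemisphere value of Edn1.

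**Figure D1:**
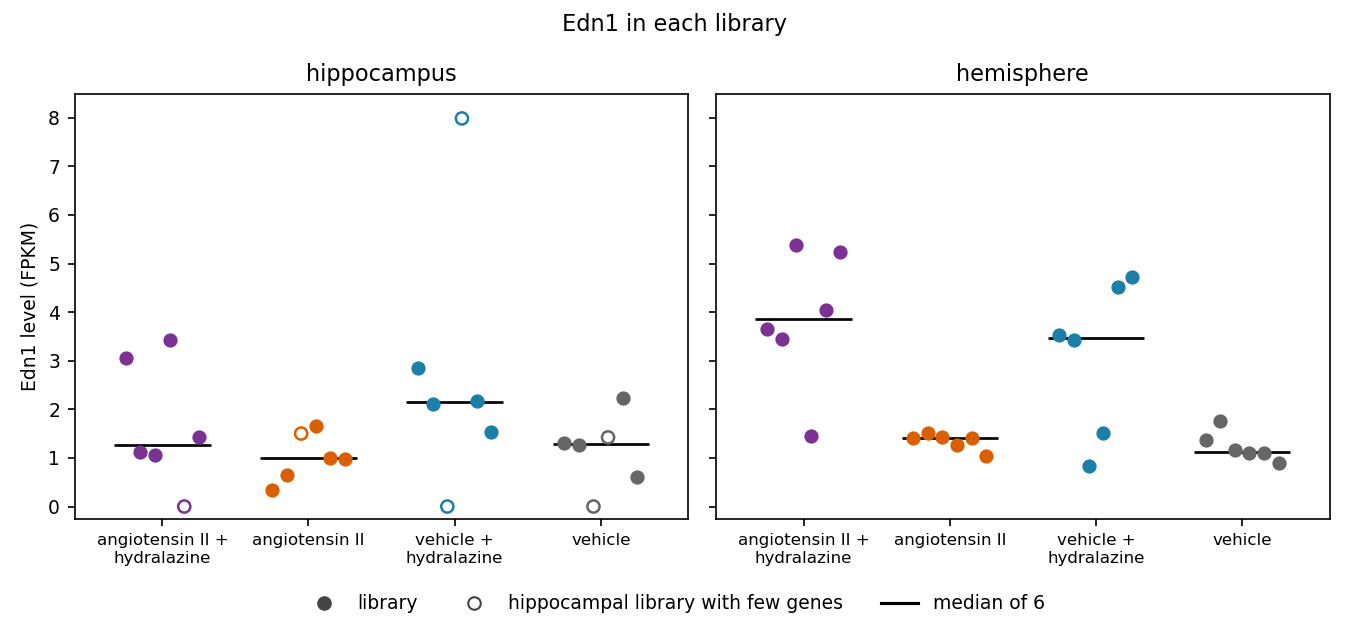
Edn1 level (FPKM) in each library, with the hippocampus on the left and the hemisphere on the right; each dot is 1 library, open dots are hippocampal libraries with few genes, and each line is the median of 6. In the hemisphere 9 of the 12 libraries with hydralazine lie above 3.43 FPKM and all 12 without it lie at or below 1.75 FPKM, while hippocampal groups overlap.

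Mean Edn1 in the hemisphere was 3.87 ± 1.43 FPKM with both drugs and 1.34 ± 0.166 FPKM with angiotensin II alone (SD, n = 6 each), and the difference on the log2(FPKM + 0.5) scale was 1.17 ± 0.28 (SE). These are among the values from which the gene was picked, and no test was made. In this comparison 5 of the 6 libraries with both drugs were above all 6 with angiotensin II alone. Against vehicle, angiotensin II alone gave a log2 fold change of 0.11 ± 0.28, from means of 1.34 ± 0.166 and 1.23 ± 0.300 FPKM. Both drugs against vehicle with hydralazine gave 0.36 ± 0.28, less than the spread within either group, and the interaction of the drugs was 0.25 ± 0.39. Without replicate 3 of vehicle with hydralazine these were 0.10 and -0.005, and without replicate 4 of both drugs 0.57 and 0.47. These comparisons share libraries with the first and are likewise descriptions.

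The libraries of vehicle mice did not enter the choice of Edn1, so hydralazine without angiotensin II could be tested. Edn1 averaged 3.09 ± 1.59 FPKM with vehicle and hydralazine and 1.23 ± 0.300 FPKM with vehicle (SD, n = 6 each), which gave a log2 fold change of 0.92 ± 0.28 (95% interval 0.34 to 1.49). It did not pass adjustment over all genes (limma, Benjamini-Hochberg adjusted p = 1), and ranked 17 of 16747 genes by p. No gene passed in this comparison (0% of those tested), 279 had an unadjusted p under 0.05, and leaving out each library in turn moved the log2 fold change of Edn1 between 0.78 and 1.17. Of the 6 hydralazine libraries, 4 were above all 6 vehicle libraries and 1, replicate 3, was below them all. Because the fold change was computed on log2(FPKM + 0.5), it understates the change of a gene at this level.

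In the hippocampus the Edn1 groups overlapped. Values with both drugs were 3.06, 1.11, 1.07, 3.43, 0 and 1.42 FPKM in replicates 1 to 6, against 0.344, 0.644, 1.502, 1.66, 1.01 and 0.976 FPKM with angiotensin II alone. Values with vehicle and hydralazine were 2.85, 2.11, 0, 7.99, 2.17 and 1.53 FPKM, against 1.31, 1.27, 0, 1.42, 2.23 and 0.608 FPKM with vehicle. The 3 libraries listed at 0 and the highest value all belonged to the 6 libraries with few genes. The log2 fold change was 0.31 ± 0.55 for both drugs against angiotensin II alone (limma adjusted p = 1). It was 0.74 ± 0.55 for vehicle with hydralazine against vehicle (adjusted p = 0.684), while the median of all genes in that comparison was -0.12. Without the 6 libraries, the first was 0.78 ± 0.30 (adjusted p = 0.52) and the second 0.57 ± 0.34 (adjusted p = 1). Angiotensin II alone against vehicle gave 0.00 ± 0.55 with all libraries and -0.38 ± 0.32 without the 6 (adjusted p = 1 and 0.808). Except for vehicle with hydralazine against vehicle, these comparisons of Edn1 are a description if its choice drew on hippocampal values. Of 15267 hippocampal genes tested, 0% passed in each treatment comparison, and 210 to 911 had an unadjusted p under 0.05. The hippocampal difference between both drugs and angiotensin II alone was 0.85 ± 0.63 (log2) below that in the hemisphere. It was 0.39 ± 0.42 below without the 6 libraries and 0.08 ± 0.42 below with library weights. No test was made of it, because Edn1 was chosen by its values with these treatments.

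Edn3, the other ligand gene (chromosome 2, 174760619 to 174784042), varied less. In the hemisphere the lowest, median and highest values were 1.26, 1.67 and 2.17 FPKM with both drugs, against 1.24, 1.48 and 2.27 FPKM with angiotensin II alone. They were 1.38, 1.69 and 2.11 FPKM with vehicle and hydralazine, against 1.04, 1.397 and 1.68 FPKM with vehicle. All 4 groups overlapped, and group means differed by less than their SDs from neighbours in their order. The largest of its hemisphere log2 fold changes was 0.22 ± 0.11, for vehicle with hydralazine against vehicle (limma adjusted p = 1). In the hippocampus Edn3 was listed at 0 in 4 of the 6 libraries with few genes and lay between 0.525 and 1.395 FPKM in the other 18.

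Edn2, the remaining endothelin gene, was close to undetected. It had 0 to 5 reads in hemisphere libraries, with 11 of 24 listed at 0, and 0 to 2 reads in hippocampal libraries. Comparisons between treatments were not made for it, since it lay below the filter on low values.

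Of the receptor genes, Ednrb (chromosome 14, 103814625 to 103844402), for the B receptor, was the more abundant. Its hemisphere values ran from 11.2 to 12.5 FPKM with both drugs, from 4.79 to 12.6 with angiotensin II alone, from 11.3 to 13.4 with vehicle and hydralazine, and from 10.7 to 13.1 with vehicle. The 4.79 FPKM belonged to replicate 6 of angiotensin II, and the next lowest in that group was 11.1 FPKM. That library also stood apart in the astrocyte markers, whose 7 genes summed to 1010 FPKM there and to 643 to 723 FPKM in the other 5 libraries of its group. Mitochondrial reads were 2.77% of its total and 5.84% to 6.66% in those 5. The part of these differences in its Ednrb value was not tested. The log2 fold change for angiotensin II against vehicle was -0.22 ± 0.14 with this library and -0.02 ± 0.05 without it (limma adjusted p = 0.589 and 0.962). For both drugs against angiotensin II it was 0.22 ± 0.14 with the library and 0.02 ± 0.05 without it (adjusted p = 0.851 and 1).

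Ednra (chromosome 8, 77663031 to 77724464), for the A receptor of vascular smooth muscle, was low in all groups. Hemisphere means were 0.794 ± 0.098 FPKM with both drugs, 0.724 ± 0.134 with angiotensin II alone, 0.887 ± 0.141 with vehicle and hydralazine, and 0.837 ± 0.071 with vehicle (SD, n = 6 each). The groups overlapped, and with the groups ranked by mean no neighbours differed by more than their SDs. The highest and lowest means, 0.887 and 0.724 FPKM, are not neighbours in that ranking. Log2 fold changes were -0.13 ± 0.09 for angiotensin II against vehicle, 0.09 ± 0.09 for hydralazine added to angiotensin II, and 0.05 ± 0.09 for vehicle with hydralazine against vehicle. None passed (limma adjusted p = 0.592, 0.862 and 1). In the 18 hippocampal libraries with more genes it lay between 0.564 and 1.104 FPKM. With the other 6 included, the range was 0 to 1.61 FPKM.

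Ece1 was the steadiest member in the hemisphere. The gene (chromosome 4, 137862237 to 137965229) encodes the membrane metalloprotease that converts big endothelin-1. It averaged 12.99 ± 0.722 FPKM with both drugs, 12.8 ± 1.18 with angiotensin II alone, 13.5 ± 0.576 with vehicle and hydralazine, and 13.4 ± 0.416 with vehicle (SD, n = 6 each). Over the 24 hemisphere libraries its coefficient of variation was 5.9%, against 64.5% for Edn1. The value for Edn1 includes the group difference for which it was picked. Ece1 had 1113 to 1670 reads per hemisphere library, and Edn1 36 to 247. Over the 3 comparisons shown in the plot of fold changes, the 95% intervals of the Ece1 log2 fold changes reached from -0.18 to 0.13. Ece2 (chromosome 16, 20629828 to 20646485), a related enzyme that works at acidic pH, averaged 1.84 ± 0.219, 1.97 ± 0.302, 1.90 ± 0.292 and 1.81 ± 0.248 FPKM in the same 4 groups. Its intervals over the same comparisons reached from -0.27 to 0.29. In the hippocampus Ece1 had medians of 6.24 FPKM with both drugs, 6.01 with angiotensin II alone, 5.91 with vehicle and hydralazine, and 5.81 with vehicle. Hippocampal medians of Ednrb in these groups were 7.33, 8.01, 7.76 and 7.47 FPKM, and the groups overlapped for both genes.

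**Figure D2:**
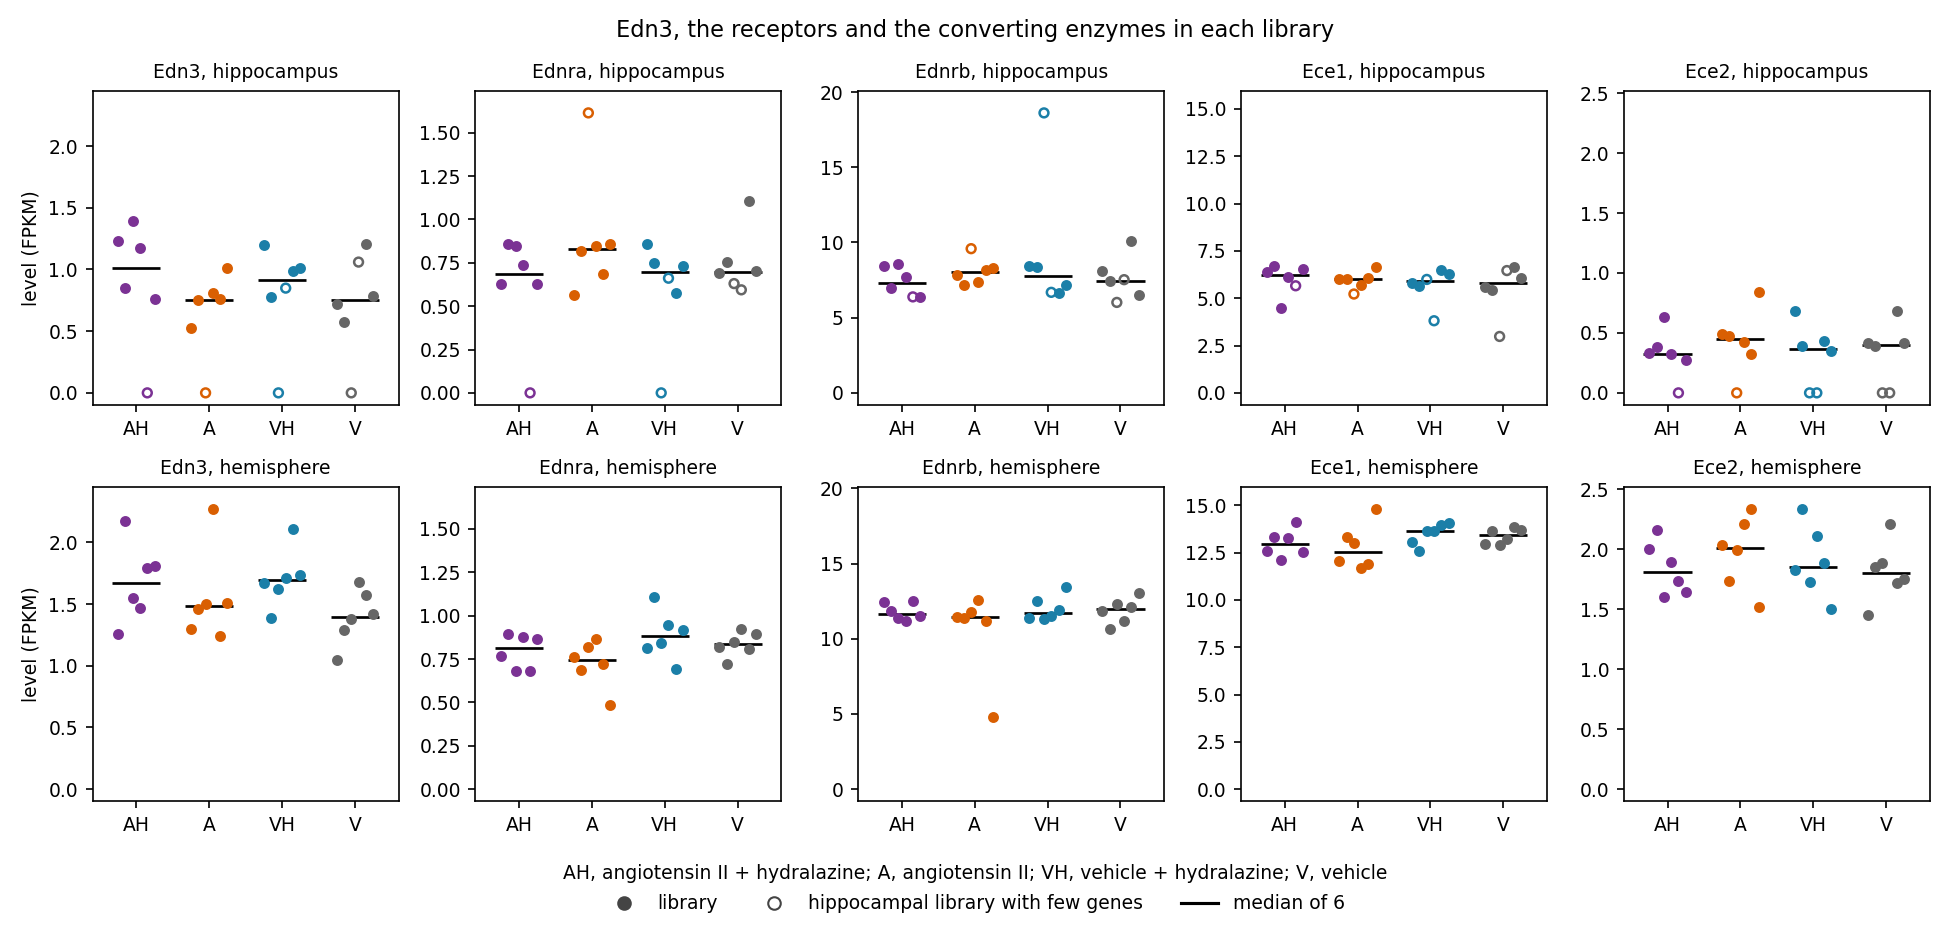
Levels (FPKM) of Edn3, Ednra, Ednrb, Ece1 and Ece2 in each library, hippocampus in the top row and hemisphere in the bottom row; dots are libraries, open dots hippocampal libraries with few genes, lines medians of 6. Treatment groups overlap within each region, and Ece1 and Ece2 are lower in all hippocampal groups than in all hemisphere groups.

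In the hemisphere limma called 0 of the 5 members tested between angiotensin II and vehicle, where 12 of 16747 genes (0.0717%) were called, 0.0179% as higher and 0.0537% as lower. It called 0 of 5 between both drugs and angiotensin II, where no gene was called (0%) and 760 had an unadjusted p under 0.05. None of these 5 members had an unadjusted p under 0.05 in either comparison. Between vehicle with hydralazine and vehicle 0 of 6 were called. The median log2 fold change of the tested members was -0.07, 0.09 and 0.05 in these comparisons, against a median of 0.00 over all genes in each. For both drugs against vehicle, both drugs against vehicle with hydralazine, and the interaction, 0 of 5 members were called, as was no other gene (0% in each), while 872, 501 and 461 genes had an unadjusted p under 0.05. In the hippocampus Ece2 lay below the filter, and 0 of the other 5 members passed in any of the 6 treatment comparisons, nor did any have an unadjusted p under 0.05. These unadjusted p-values are from the fit with all hippocampal libraries, including the 6 with few genes, and may differ without them. For Edn1, comparisons with angiotensin II or both drugs are not independent of its choice if that choice drew on hippocampal values. Differences between the regions in the angiotensin II effect and in the effect of added hydralazine were tested for the 5 members other than Edn1, and 0 passed (0% of 17643 genes in each). No member had an unadjusted p under 0.05 there, against 516 and 433 of all genes.

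**Figure D3:**
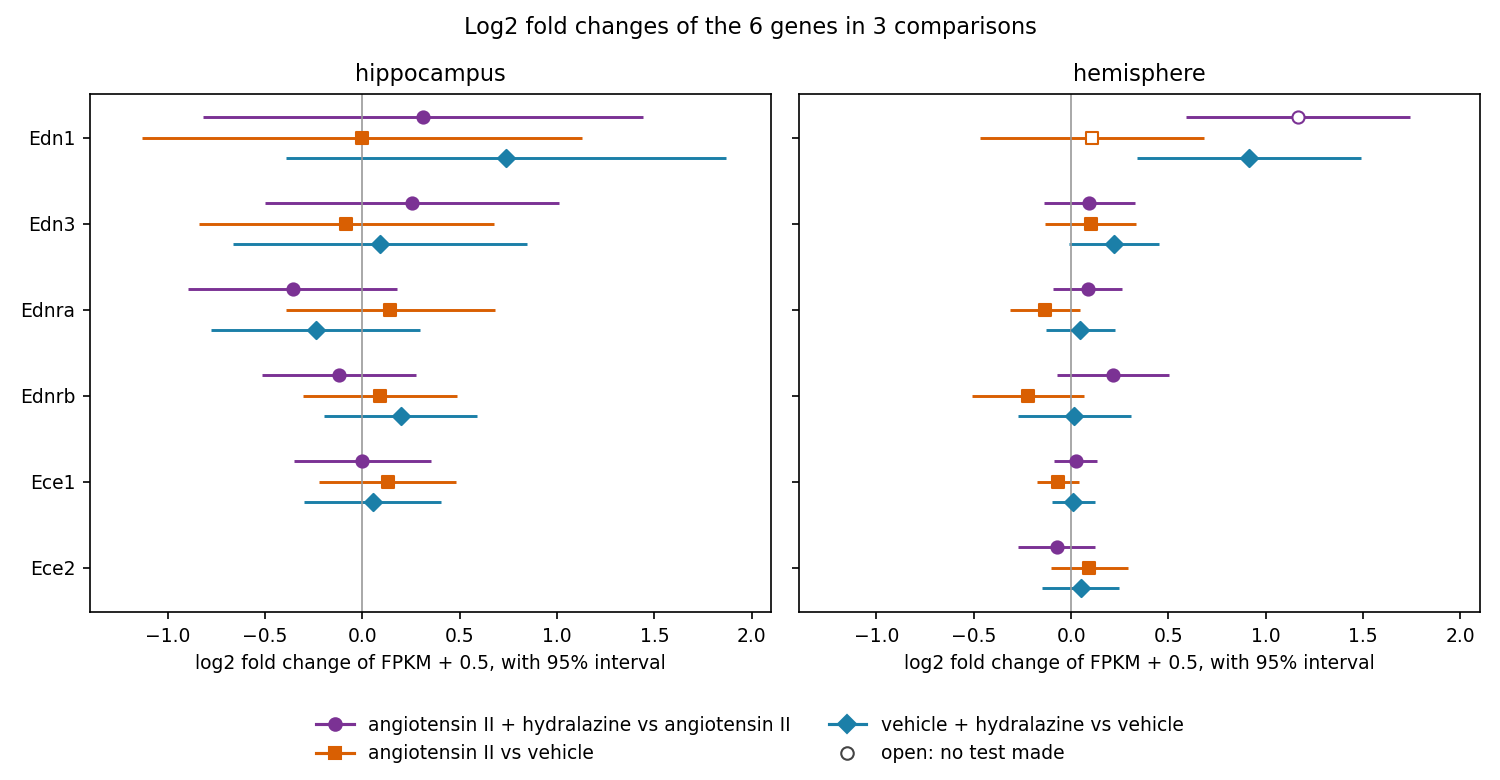
Log2 fold changes of FPKM + 0.5 with 95% intervals for the 6 genes in the hippocampus (left) and the hemisphere (right), of both drugs over angiotensin II (circles), angiotensin II over vehicle (squares) and vehicle with hydralazine against vehicle (diamonds); open symbols had no test, and Ece2 was below the filter in the hippocampus. The hemisphere interval of Edn1 for vehicle with hydralazine over vehicle runs from 0.34 to 1.49, and the open symbols of Edn1 are descriptions only.

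Between the regions several members passed. In vehicle mice 4 of the 6 members (Ece1, Ece2, Edn3 and Ednrb) were called lower in the hippocampus than in the hemisphere and none higher, where 42.2% of 17643 genes were called and 29.5% were called lower. The median log2 fold change was -0.67 over the members and -0.21 over all genes. Ece2 was at 0.414, 0.389, 0, 0, 0.686 and 0.412 FPKM in hippocampal replicates 1 to 6, against 1.45, 1.85, 1.89, 2.21, 1.72 and 1.76 FPKM in the hemisphere. This was a log2 fold change of -1.57 ± 0.21 (limma adjusted p = 3.13e-08), or -1.25 ± 0.13 without the libraries with few genes (adjusted p = 5.58e-11). Ece2 passed the filter on low values only through the hemisphere, where it is higher, so its call in the filtered fit is no support for the difference. With no filter its adjusted p was 6.83e-08. Ece1 was at 5.58, 5.46, 2.98, 6.46, 6.66 and 6.05 FPKM in the hippocampus, against 12.9 to 13.9 FPKM in the hemisphere. Its log2 fold change was -1.24 ± 0.12 (adjusted p = 5.77e-12), or -1.11 ± 0.07 without those libraries (adjusted p = 7.87e-16). Hippocampal and hemisphere libraries did not overlap for either enzyme gene in any of the 4 treatments.

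Ednrb was at 8.14, 7.41, 6.02, 7.53, 10.1 and 6.48 FPKM in the hippocampus of vehicle mice, all below the 10.7 to 13.1 FPKM in their hemispheres. The log2 fold change was -0.62 ± 0.17 (limma adjusted p = 0.00219), or -0.55 ± 0.14 without the libraries with few genes (adjusted p = 0.000969). The B receptor is carried by astrocytes, and the 7 astrocyte markers summed to 540 to 614 FPKM in these hippocampal libraries and 627 to 751 FPKM in the hemisphere. Choroid plexus markers, 7 genes, summed to 9.2 to 112.7 FPKM in hippocampal and 481.2 to 838.9 FPKM in hemisphere libraries of vehicle mice. In the hippocampus with angiotensin II alone their median was 14.2 FPKM, but the highest sum was 2005.1 FPKM, in a library not among those with few genes. That library stayed in the hippocampal comparisons, and its part in them was not tested. Of the 7 astrocyte genes, 3 were called lower and 1 higher in the hippocampus of vehicle mice, and none was at 0 in all libraries. Among all genes 29.5% were called lower and 12.7% higher there. The part of astrocyte or choroid plexus RNA in the regional differences was not tested, and in bulk tissue fewer cells of a type and less RNA per cell cannot be told apart.

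Edn3 had 0.723, 0.578, 0, 1.06, 1.21 and 0.784 FPKM in the hippocampus, against 1.04, 1.29, 1.38, 1.68, 1.57 and 1.42 FPKM in the hemisphere. Its log2 fold change of -0.72 ± 0.27 passed (limma adjusted p = 0.0297), as did -0.53 ± 0.14 without the libraries with few genes (adjusted p = 0.000859). The call was lost with a pseudocount of 0.1 FPKM (adjusted p = 0.0947), with no filter (adjusted p = 0.05) and with quantile normalization (-0.24, adjusted p = 0.219). It was also lost without hippocampal replicate 3 of vehicle (adjusted p = 0.142) or hemisphere replicate 4 or 5 (adjusted p = 0.0582 and 0.0528). Edn1 and Ednra did not pass, with log2 fold changes of -0.23 ± 0.44 and -0.11 ± 0.19 (adjusted p = 0.713 and 0.672). Without the libraries with few genes they were 0.05 ± 0.32 and -0.04 ± 0.10. Quantile normalization, which moved the median of all genes to 0.04, gave 0.26 for Edn1 and 0.37 for Ednra, and Ednra then passed as higher in the hippocampus (adjusted p = 0.0243).

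**Figure D4:**
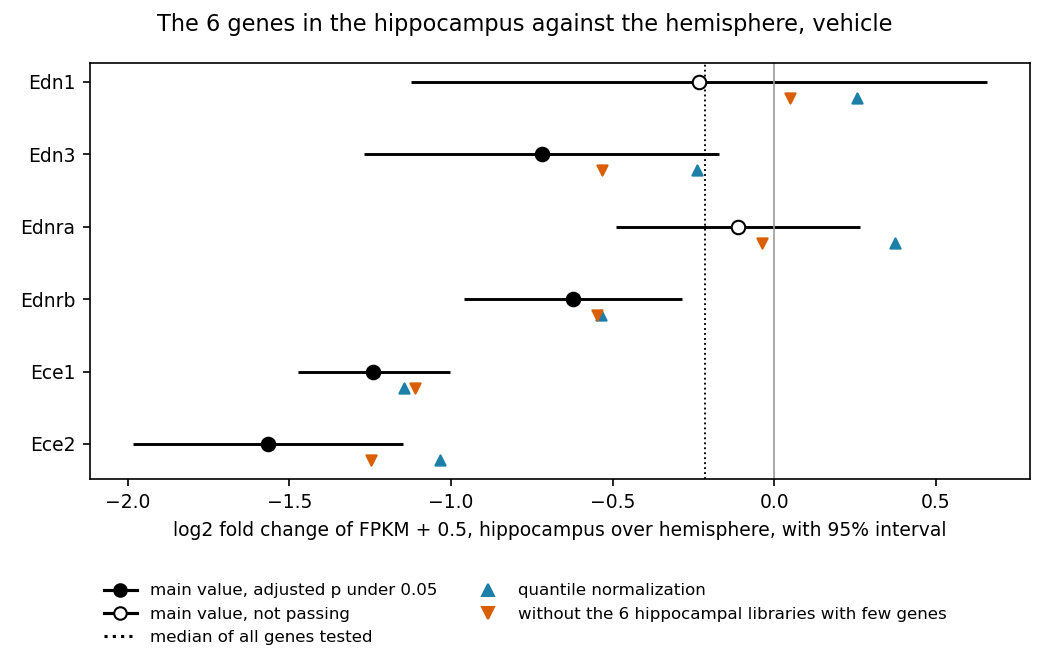
Log2 fold changes of FPKM + 0.5 for the 6 genes, hippocampus over hemisphere in vehicle mice, with 95% intervals; filled circles passed an adjusted p of 0.05, open circles did not, triangles give 2 alternatives, and the dotted line is the median of all genes. Ece1, Ece2, Edn3 and Ednrb lie below 0 in all 3 values shown, while the quantile values of Edn1 and Ednra lie above 0.

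The genes that process and break down endothelins were followed as a list of 11, of which 8 were tested in the hemisphere. None passed in any treatment comparison in either region. Between the regions 8 were likewise tested in vehicle mice, and 6 were called lower in the hippocampus, where 29.5% of all genes were. Of these 6, Ecel1, Mme and Mmel1 lay below the filter in the hippocampus and entered only through the hemisphere. They are described without a test, and the count of 6 is no support for a difference of the list. Furin, which makes the first cut in the precursors, lay between 1.31 and 5.41 FPKM in hippocampal and 4.31 and 6.68 FPKM in hemisphere libraries of all treatments. In vehicle mice it lay between 2.285 and 4.744 FPKM in the hippocampus and 4.562 and 5.972 FPKM in the hemisphere. There it was lower in the hippocampus by a log2 fold change of -0.71 ± 0.18 (limma adjusted p = 0.00137). Mme, which encodes the peptide-degrading enzyme neprilysin, had 0 to 0.524 FPKM over hippocampal libraries and 0.184 to 0.766 FPKM over hemisphere libraries. Ecel1, which encodes a neuronal protease of the same family as Ece1, had 0 to 0.984 FPKM in hippocampal libraries against 7.22 to 14.6 FPKM in hemisphere libraries. Mmel1 had a median of 0.09 FPKM over hippocampal and 0.75 FPKM over hemisphere libraries. The furin-family gene Pcsk7 was lower by a log2 fold change of -0.91 ± 0.26 (limma adjusted p = 0.00388). With a pseudocount of 0.1 FPKM, 3 of the list passed.

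Of 31 gene symbols listed for signalling from endothelin receptors, 30 were in the table and tested in the hemisphere, and 0 passed in any treatment comparison. The symbol not found is an older name of a gene among the 30. Between the regions in vehicle mice, 2 of the 30 were called higher and 14 lower in the hippocampus, against 12.7% higher and 29.5% lower among all genes. Any of the 14 that are low in the hippocampus may have entered only through the hemisphere, so that count is a description. The higher ones were the protein kinase C genes Prkce (log2 fold change 1.04 ± 0.10) and Prkca (0.996 ± 0.138), the second named after its value was seen. Among the lower ones were Arrb1, for a beta-arrestin that ends receptor signalling (-1.28 ± 0.11), and Rgs4, which switches off G proteins (-1.43 ± 0.16), with limma adjusted p = 5.97e-13 and 4.32e-10. Of 13 regulators of Edn1 transcription, 0 passed in any treatment comparison. The nearest was Fos, an AP-1 subunit, with a log2 fold change of -1.45 ± 0.30 in hemispheres with angiotensin II against those with vehicle (adjusted p = 0.0788). Between the regions in vehicle mice 2 of the 13 passed, where 42.2% of all genes passed and 29.5% passed as lower. Fos (-1.87 ± 0.55) and the hypoxia factor subunit Arnt (-1.11 ± 0.26) were lower in the hippocampus. Over the alternatives of processing, 2 to 10 of the regulators passed.

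Endothelial cells are the main known source of endothelin-1 in vessels, so their markers were set beside Edn1. The 8 endothelial markers summed to 135 to 159 FPKM in the hemisphere with both drugs, 128 to 149 with angiotensin II alone, 117 to 150 with vehicle and hydralazine, and 110 to 154 with vehicle. The 7 arterial markers summed to 27.7 to 30.1, 25.1 to 28.8, 27.5 to 32.2 and 27.1 to 32.2 FPKM in these groups. Mural cell markers, 10 genes of pericytes and smooth muscle that carry the A receptor, summed to 42.4 to 54.8, 44.5 to 52.4, 38.1 to 52.6 and 40.9 to 52.4 FPKM. All 3 lists overlapped between the groups, and no member of them passed in a hemisphere treatment comparison. The endothelial sum was 138 FPKM in replicate 4 of both drugs, and 117 FPKM, the lowest of its group, and 124 FPKM in replicates 3 and 4 of vehicle with hydralazine, the libraries with low Edn1. The part of endothelial RNA in the Edn1 values was not tested.

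After subtracting each group's mean, Pearson correlations between Edn1 and the other 5 members over the 24 hemisphere libraries ran from -0.18 to 0.18. Those among the other 5 members ran from -0.57 (Ednrb and Ece1) to 0.62 (Ednra and Ednrb), and these 2 were 0.08 and 0.29 without replicate 6 of angiotensin II. In the 18 hippocampal libraries with more genes, Edn1 correlated with the other members at 0.05 (Ece2) to 0.48 (Edn3), and the highest value among all pairs was 0.67 (Edn3 and Ece2). These points share libraries and depth and are given as a description. Of 13598 protein-coding genes compared, those most like Edn1 were Xbp1, a transcription factor of the unfolded protein response (r = 0.66), Itm2a, a membrane protein gene that is also in the endothelial list (0.65), and Adgre5, an adhesion receptor gene (0.65). In the 18 hippocampal libraries with more genes these correlations were 0.04, 0.41 and -0.07. The hemisphere values are extremes picked from 13598, and how high unrelated genes reach over 24 libraries was not computed. At the other end, and named after their values were seen, were the Notch ligand gene Dll4 (-0.76), the clock gene Dbp (-0.72) and Vegfa, for a vascular growth factor (-0.71), at -0.06, 0.06 and 0.04 in those hippocampal libraries. For Ednrb the closest were Scg3, Usp45 and Camta1 (0.97 each), and the values were 0.64, 0.60 and 0.59 without replicate 6 of angiotensin II. The closest were Kyat3, Glipr2 and Anxa7 for Edn3 (0.68 to 0.75), Nsmce2, Cntnap5a and Clgn for Ednra (0.79 to 0.81), Sf3a1, St6galnac4 and Rnf19b for Ece1 (0.77 to 0.83), and Pex5l, Timm10b and 0610030E20Rik for Ece2 (0.74 to 0.78).

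Edn1 (ENSMUSG00000021367) spans chr13:42301476-42307990 on the + strand of GRCm38 and overlaps the antisense gene Gm47118. No source used here gives the strand setting of the counting, and reads of the 2 genes cannot be told apart. Gm47118 had 0 to 0.445 FPKM in the hemisphere, with means of 0.104 FPKM with both drugs, 0 with angiotensin II alone, 0.180 with vehicle and hydralazine, and 0.044 with vehicle. It was listed at 0 in all hippocampal libraries. Genes that overlap Ednra, Ece1 and Ece2 stayed at or below 0.263 FPKM in every library.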

How the data were processed

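The authors deposited FPKM per gene for 48 libraries, with gene lengths. The submitters' processing notes name DESeq 1.10.1 and the builds mm10 and GRCm38. Which aligner, counting tool and strand setting were used is not given in the sources used here. FPKM times length gave whole reads for 100% of values (tolerance 0.1 read), used to describe depth only. In 120 pairs of libraries within groups the lowest chi-square per gene was 3.08, so none was counted as a duplicate.

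Values were analysed as log2(FPKM + 0.5). Genes reaching 0.5 FPKM in 6 or more libraries were tested two-sided with limma 3.58.1 in R 4.3.3 (trend and robust prior), 1 mean per group, all groups of a region fitted together and all 48 libraries between regions. Calls were Benjamini-Hochberg adjusted p under 0.05. The fit was tested on simulated reads. Tables were made with pandas 2.3.3 and plots with matplotlib 3.10.9, in Python 3.11.15.

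The members, lists and tests were chosen with earlier results of these data known. Text names all members, up to 4 called genes of each pathway list, Edn2, Furin, Mme and Ecel1, and the 3 genes most correlated with each member in the hemisphere. One signalling gene that this rule names is not reported here. Alternatives were other pseudocounts, filters, scalings and moderation, library weights, a replicate block, only the groups compared, and left-out libraries.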

Additional observations from a re-analysis of the deposited data

Results flagged for a closer look

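In each group of 6 libraries, the highest or lowest value of a member was singled out where its gap to the nearest library was large relative to the group's range (Dixon's criterion). Of 48 groups, 11 values met it, where chance gives about 1 in 20 groups. In the hemisphere these were Edn3 in replicate 4 of angiotensin II (2.27 FPKM, next 1.51) and Ednrb in replicate 6 of angiotensin II (4.79 FPKM, next 11.1). In hippocampal libraries with more genes there was only Ednra in replicate 5 of vehicle (1.104 FPKM, next 0.753). The other 8 lay in hippocampal libraries with few genes. Replicate 3 of vehicle with hydralazine, the library with the fewest reads (1211505), listed Edn3 and Ednra at 0 and Ednrb at 18.6 FPKM, from 110 reads. Replicate 4 of the same group had Edn1 at 7.99 FPKM, from 269 reads, and Ece1 at 3.81 FPKM. Ednra was at 0 in replicate 5 of both drugs and at 1.61 FPKM in replicate 3 of angiotensin II. Ece1 was at 2.98 FPKM in replicate 3 of vehicle.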

How the results depend on the processing

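In 617 values over 15 comparisons, the count of members called stayed at 0 wherever it was 0 in the main fit. Little could move there, since few or no genes at all were called in the main fit. Between regions in vehicle mice the count was 3 or 4, against 4 in the main fit. Edn1 in the hippocampus turned to 0.20 (log2) for angiotensin II against vehicle with a pseudocount of 0.1 FPKM. The hippocampal interaction turned to 0.25 with library weights and 0.20 without the 6 libraries with few genes, against -0.43 with all. Between regions, quantile normalization gave 0.26 for Edn1 and 0.37 for Ednra, and leaving out the 6 libraries gave 0.05 for Edn1. The cause was not tested. Leaving out 1 library at a time turned small values of Ece1 (-0.00027 to 0.065 for both drugs against angiotensin II), Ednrb (-0.014 to 0.044), Ece1 (-0.00057 to 0.031) and Ece2 (-0.00063 to 0.10 for hydralazine in vehicle mice), all in the hemisphere. The hemisphere interaction of Edn1 ran from -0.005 to 0.47. Leaving out 1 library also turned Edn1 in the hippocampus (-0.31 to 0.18 for angiotensin II against vehicle) and between regions (-0.42 to 0.074). With library weights, 1 regulator of Edn1 passed between angiotensin II and vehicle and 2 signalling genes passed between both drugs and vehicle in the hemisphere, and without hemisphere replicate 3 of vehicle 1 regulator did. Between regions the regulators called numbered 2 to 10.

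Whether same-numbered libraries of the 2 regions come from the same mouse is not stated in the labels. Correlations of same-numbered libraries between the regions ran from -0.21 to 0.04. Within a region, across treatments, they ran from -0.21 to 0.47. Between regions, 5 of 24 libraries matched best with their own number among the 6 of their treatment. These correlations cannot exclude that libraries share a mouse. With the number as a block, hydralazine against vehicle in the hemisphere gave 0.92 ± 0.26 for Edn1 (limma adjusted p = 1), and no call of a member changed. Edn1, Edn3, Ednra and Ece2 were listed at 0 in 3, 4, 2 and 6 hippocampal libraries, all among the 6 with few genes. Of those 6, 1 had 1211505 reads in genes and the other 5 had 12685806 to 16702324.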
